A study of Homo sapiens with 8 samples.

Results

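The RNA levels of 30 genes that make cholesterol and fatty acids, or control how much of them is made, were compared between D283-OMO cells with and without doxycycline (DOX). The genes were chosen by name. They run from HMGCS1 at the start of the mevalonate pathway to DHCR7 at the end of cholesterol synthesis, and from ACLY to the fatty acid desaturases. No rule on their values was used, but earlier results of these data were known when they were listed. Each was found in the deposited counts by the Ensembl identifier that the GENCODE annotation pairs with its symbol. All 30 were among the 15222 genes that exceeded 1 CPM, a count scaled to the size of its library, in at least 4 of the 8 libraries, out of 60668 genes listed.

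D283 Med is a long-established human medulloblastoma cell line with high MYC, and D283-OMO is its stable derivative, selected with hygromycin after lentiviral transduction. It carries a FLAG-tagged OMOMYC transgene under a DOX-inducible promoter. OMOMYC is a dominant-negative relative of MYC, the transcription factor that pairs with MAX on E-box sequences. Untreated D283-OMO cells (4 libraries) were set against D283-OMO cells given DOX for 72 h (4 libraries), and all 8 libraries carry the transgene. The libraries were made from polyA+ RNA with a stranded kit and read as pairs, and the study describes the replicates as independent. No library of DOX-treated cells without the transgene was analysed here, so effects of OMOMYC and of DOX itself cannot be told apart. Total counts ran from 46592882 to 54020451 in the untreated and from 38390649 to 49249120 in the DOX libraries, and no member had fewer than 267 counts in any library.

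The labelled cell type was checked on markers. OTX2, CRX, NRL, IMPG2, NPR3 and GABRA5, genes of Group 3 medulloblastoma and its photoreceptor-like program, were present in the untreated libraries (OTX2 at 1046 ± 17.3 CPM, SD, n = 4), and all 6 were lower with DOX. EYA1, the other marker of that list besides MYC, reached at most 0.298 CPM in any library. CAD and NCL, MYC target genes, fell by 0.48 and 0.44 on the log2 scale. MYC itself read 937 ± 75.5 CPM untreated and 1120 ± 56.6 CPM with DOX (SD, n = 4), a log2FC of 0.26 (adjusted p = 0.00237) with overlapping groups, and its counts cannot separate MYC from OMOMYC reads. Summed over 5 markers each, leukocyte genes reached at most 0.819 CPM and endothelial genes at most 4.09 CPM in any library. Fibroblast markers summed to between 21.1 and 25.2 CPM in both groups, nearly all of it COL1A1. Of the mature glia markers, MOG had no count in any library and GFAP, AQP4 and MBP stayed below 1 CPM. The part of these genes in the results was not tested. In bulk RNA, fewer cells of a type and less RNA per cell cannot be told apart.

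Cholesterol is built from acetyl-CoA through mevalonate, isoprenoid pyrophosphates, squalene and lanosterol. Fatty acids are built from the same acetyl-CoA, which ACLY and ACSS2 provide in the cytosol, and are then lengthened and desaturated. Both branches are classically driven by the sterol regulatory element binding proteins, SREBP-1 and SREBP-2, membrane-bound factors that SCAP escorts out of the endoplasmic reticulum when sterols are low and that INSIG proteins hold back when sterols are high. NF-Y and SP1 are well-known partners of the SREBPs on these promoters.

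The members did not move as a block upon DOX. Of the 30, 12 were higher and 15 lower at an adjusted p below 0.05 (edgeR), and the remaining 3, MVK, IDI1 and LSS, did not pass. Over all genes tested, 38.5% were called higher and 38.1% lower, so the members' 40% and 50% are to be read against a transcriptome in which most genes were called. The 4 libraries of each group did not overlap for the same numbers of members, 12 higher and 15 lower, where 36.3% and 35.4% of all genes tested did not overlap in those directions. The median log2 fold change (log2FC, DOX over untreated) was −0.23 over the members and 0.01 over all genes tested, and single members ran from −1.23 for FADS1 to 1.91 for FDFT1. With scaling by library size only, the medians were −0.10 and 0.14. The median absolute log2FC was 0.55 among members and 0.43 among all genes tested.

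Changes of more than 1 on the log2 scale were found for 6 members. FDFT1, SC5D, TM7SF2 and STARD4 were higher and FADS1 and SCD lower, against 11.0% of all genes tested that were higher and 9.81% that were lower by that rule. HMGCS1 lay at the edge, with a log2FC of 0.9998 just under the threshold. None of the 30 passed the thresholds given in the methods of the study (FDR below 0.001 and absolute log2FC above 2), which 7.12% of the genes tested passed. With scaling by library size only, SCD no longer fell by more than 1 (log2FC −0.97) and FDFT1 passed those thresholds (log2FC 2.03).

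**Figure D1:**
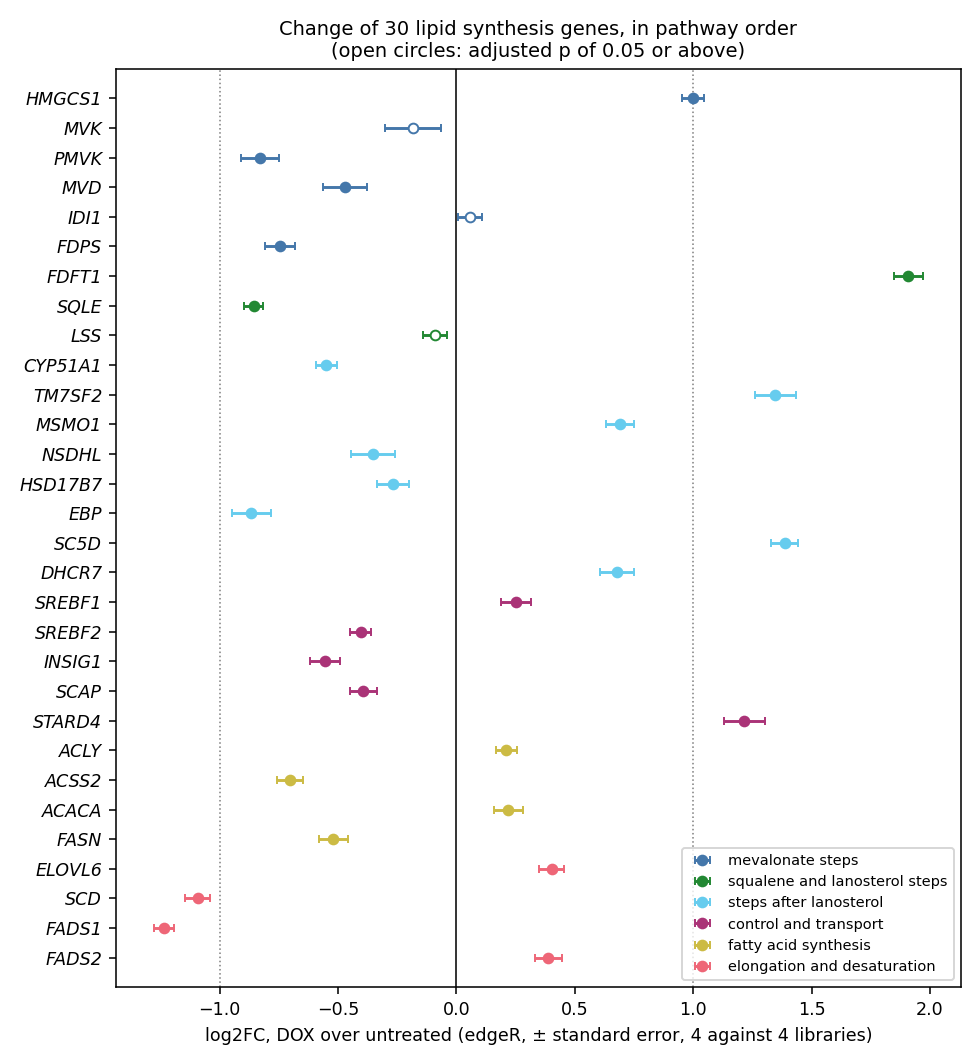
Points give the log2FC of each member (DOX over untreated, edgeR, x axis) with its standard error, from 4 against 4 libraries, listed from top to bottom in pathway order and coloured by role, with open circles for an adjusted p of 0.05 or above and dotted lines at −1 and 1. Every role group has members on both sides of 0, with FDFT1 at 1.91 and FADS1 at −1.23 as the extremes.

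Along the mevalonate steps, 1 gene rose, 3 fell and 2 did not pass. HMGCS1, which makes HMG-CoA, rose from 37.2 ± 1.48 to 74.4 ± 2.79 CPM (mean ± SD, n = 4 per group here and below). Its log2FC was 0.9998 ± 0.0476 (SE, adjusted p = 3.41e-09). PMVK, FDPS and MVD, further down, fell. PMVK, phosphomevalonate kinase, went from 54.5 ± 6.56 to 30.6 ± 1.90 CPM with a log2FC of −0.83. FDPS, which makes farnesyl pyrophosphate, went from 123.8 ± 10.4 to 73.8 ± 3.57 CPM with a log2FC of −0.75. MVD, the decarboxylase that gives isopentenyl pyrophosphate, went from 10.7 ± 1.23 to 7.71 ± 0.66 CPM with a log2FC of −0.47. MVK, the kinase ahead of PMVK, had a log2FC of −0.18 ± 0.12 (SE, adjusted p = 0.174), and IDI1, the isomerase, one of 0.06 ± 0.05 (SE, adjusted p = 0.328). The groups of both overlapped. Summed over the 6 genes, the level ran from 239 to 285 CPM untreated and from 211 to 223 CPM with DOX.

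The steps from farnesyl pyrophosphate to lanosterol held the member with the largest rise. FDFT1 (ENSG00000079459.13, chromosome 8, plus strand) encodes squalene synthase, which joins farnesyl pyrophosphate into squalene and commits it to sterols. It read 33.9, 39.9, 40.0 and 37.2 CPM in untreated replicates 1 to 4 and 141.8, 133.8, 146.1 and 144.9 CPM with DOX. Every DOX library was above 3 times every untreated one. The rise was 3.75-fold, a log2FC of 1.91 ± 0.06 (SE, adjusted p = 1.16e-10, edgeR). SQLE, squalene epoxidase, which acts on the product of FDFT1 and is often described as rate-limiting, fell from 103.5 ± 1.34 to 57.1 ± 1.52 CPM, a log2FC of −0.86 ± 0.04 (SE, adjusted p = 3.12e-09). Within a library, FDFT1 counts were 0.365 ± 0.032 times those of SQLE untreated and 2.48 ± 0.15 times with DOX (SD, n = 4 each), a pair chosen after its values were seen and so not tested. LSS, which closes the rings to give lanosterol, had 57.6 ± 1.62 and 54.1 ± 3.01 CPM, a log2FC of −0.09 (adjusted p = 0.116), with overlapping groups.

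Of the 8 genes that turn lanosterol into cholesterol, 4 rose and 4 fell. SC5D (ENSG00000109929.10, chr11:121292453-121308694, plus strand), the sterol desaturase near the end of the route, read 34.6, 31.2, 29.4 and 32.1 CPM untreated and 84.4, 87.1, 81.6 and 79.6 CPM with DOX. The lowest DOX library was more than 2 times the highest untreated one, and the log2FC was 1.39 ± 0.06 (SE, adjusted p = 9.33e-10). TM7SF2 (ENSG00000149809.15, chr11:65111845-65116384, plus strand), a sterol reductase, read 15.6, 19.0, 20.6 and 18.6 CPM untreated and 43.4, 43.4, 50.5 and 50.6 CPM with DOX. Its groups were apart as well, with a log2FC of 1.35 ± 0.09 (SE, adjusted p = 4.76e-08).

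MSMO1, the methylsterol oxidase, and DHCR7, whose reaction yields cholesterol, rose by less. MSMO1 went from 14.8 ± 1.08 to 23.9 ± 0.85 CPM and DHCR7 from 18.8 ± 1.57 to 30.03 ± 2.13 CPM, with log2FC of 0.69 and 0.68. The genes that fell include both partners of MSMO1 in removing the methyl groups, NSDHL (log2FC −0.35) and HSD17B7 (−0.27). With scaling by library size only, HSD17B7 was no longer called (log2FC −0.14, adjusted p = 0.0604). EBP, the sterol isomerase just ahead of SC5D, fell from 34.1 ± 3.91 to 18.7 ± 1.42 CPM, a log2FC of −0.87 ± 0.08 (SE, adjusted p = 1.74e-06). CYP51A1, the lanosterol demethylase that opens this stretch, fell from 45.7 ± 0.47 to 31.2 ± 1.499 CPM, a log2FC of −0.55. The summed level of the 8 genes was 187 ± 8.47 CPM untreated and 253 ± 5.33 CPM with DOX, and no DOX library lay in the untreated range.

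**Figure D2:**
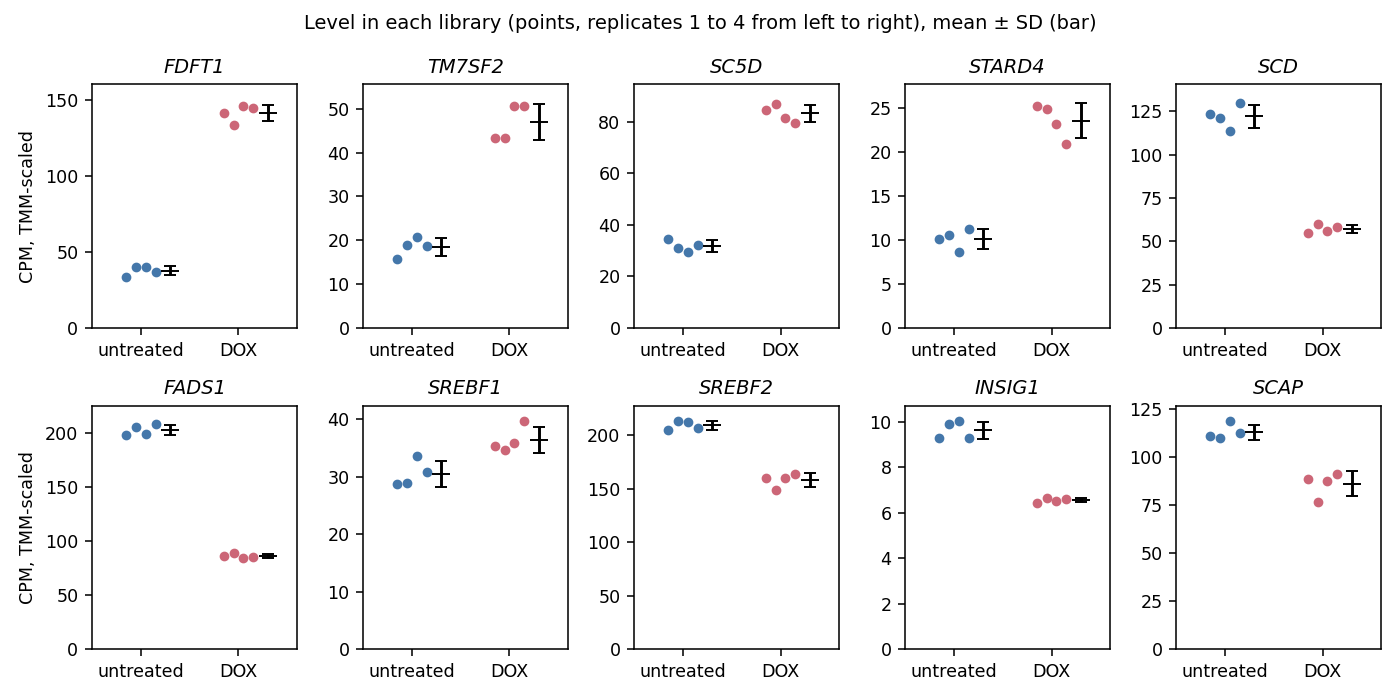
Each panel shows one gene, with TMM-scaled CPM from 0 on the y axis, a point for each library (replicates 1 to 4 from left to right in each group) and a bar for the mean ± SD of 4. The groups do not overlap in any of the 10 panels, and the gap is widest in relative terms for FDFT1, with 33.9 to 40.0 CPM untreated and 133.8 to 146.1 CPM with DOX.

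Of the 5 genes for control and transport, 2 rose and 3 fell, and the pair of SREBP genes went in opposite directions. SREBF2 (ENSG00000198911.12, chr22:41833079-41907308, plus strand) encodes SREBP-2, the factor classically tied to cholesterol synthesis. It read 205.1, 213.3, 212.7 and 206.8 CPM untreated and 160.3, 148.7, 160.3 and 163.6 CPM with DOX. It fell by 0.40 ± 0.04 on the log2 scale (SE, adjusted p = 5.44e-06, edgeR). SREBF1 (ENSG00000072310.17, chr17:17810399-17837002, minus strand) encodes SREBP-1, classically tied to fatty acid synthesis. Its levels were 28.7, 28.9, 33.6 and 30.9 CPM untreated and 35.2, 34.6, 35.9 and 39.7 CPM with DOX. The highest untreated library came close to the lowest DOX library, and the log2FC was 0.25 ± 0.06 (SE, adjusted p = 0.00343). Within a library, which takes scaling out of the comparison, the SREBF1 to SREBF2 count ratio was 0.146 ± 0.0099 untreated and 0.230 ± 0.0102 with DOX (SD, n = 4 each). That is a log2 difference of 0.66 (two-sided exact permutation p = 0.0286, the smallest that 4 against 4 allows, and 0.0429 adjusted over the 3 ratios tested).

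SCAP and INSIG1, the escort and the retention factor, both fell. SCAP (ENSG00000114650.20, chr3:47413694-47477126, minus strand) read 110.9, 109.7, 118.4 and 112.4 CPM untreated and 88.6, 76.5, 87.4 and 91.3 CPM with DOX, a log2FC of −0.39 ± 0.06 (SE, adjusted p = 6.88e-05). INSIG1 (ENSG00000186480.13, chr7:155297776-155310235, plus strand), itself a classic SREBP target, read 9.28, 9.88, 10.02 and 9.30 CPM untreated and 6.43, 6.64, 6.53 and 6.61 CPM with DOX, a log2FC of −0.55 ± 0.06 (SE, adjusted p = 6.53e-06). The DOX libraries of INSIG1 lay close together, below every untreated library. The INSIG1 to SCAP ratio, 0.0853 ± 0.0033 untreated and 0.0766 ± 0.0069 with DOX (SD, n = 4 each), did not pass (log2 difference −0.16, two-sided exact permutation p = 0.114). Leaving out any single library other than DOX replicate 2 gave p from 0.114 to 0.2 (exact permutation test). DOX replicate 2, whose SCAP level was the lowest, had a ratio of 0.0868, inside the untreated range of 0.0828 to 0.0901. Without that library the difference was −0.22 with an unadjusted p = 0.0286 (exact permutation test).

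STARD4 (ENSG00000164211.13, chr5:111496033-111512590, minus strand), a carrier of cholesterol between membranes, went the other way from SREBF2, INSIG1 and SCAP. It read 10.1, 10.6, 8.62 and 11.2 CPM untreated and 25.2, 24.8, 23.2 and 20.9 CPM with DOX. The groups were well apart, with a log2FC of 1.22 ± 0.09 (SE, adjusted p = 1.14e-07).

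The RefSeq promoter table (GRCh38.p14, 250 bases before to 50 bases after each start) held 27 of the 30 members, all but FDFT1, SQLE and FASN. Short motifs were searched on both strands. CCAAT, the NF-Y motif, was in at least one promoter of 21 of the 27 members (77.8%), against 39.7% of the 27305 genes in the table. GGGCGG, the core of the SP1 motif, was in 26 of 27 (96.3%, against 48.3% of genes). CACGTG, the E-box that MYC and MAX and also the SREBPs can bind, was in 4, INSIG1, LSS, SC5D and SCAP (14.8%, against 8.77%), and the sterol regulatory element core TCACNCCAC in SREBF2 only (3.70%, against 1.39%). CCAAT was present in 9 of the 11 members that rose and 9 of the 13 that fell and have a promoter in the table. The comparison shares cover all genes in the table, whether or not they passed the expression filter, and a gene with several starts had several windows. Whether other expressed genes hold these motifs as often was not tested. Matches describe these windows and are not binding sites.

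The stretches below, 5′ to 3′ on the gene's strand, are shown because they hold the sterol element and the CCAAT motifs of genes that moved in both directions: SREBF2 and SCD fell, HMGCS1, MSMO1 and STARD4 rose. Capitals mark TCACNCCAC and CCAAT (read as ATTGG on the other strand). All 5 lie upstream of the span GENCODE 29 gives the gene.
SREBF2, chr22:41832945-41833024, plus strand: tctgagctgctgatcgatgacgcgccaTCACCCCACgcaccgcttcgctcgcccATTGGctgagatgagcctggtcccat
HMGCS1, chr5:43313513-43313592, minus strand: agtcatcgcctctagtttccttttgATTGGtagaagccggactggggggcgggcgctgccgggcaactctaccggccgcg
MSMO1, chr4:165327469-165327548, plus strand: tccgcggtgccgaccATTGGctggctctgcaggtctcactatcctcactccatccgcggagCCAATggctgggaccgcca
STARD4, chr5:111512636-111512715, minus strand: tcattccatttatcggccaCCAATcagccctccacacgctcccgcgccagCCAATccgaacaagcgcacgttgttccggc
SCD, chr10:100346983-100347062, plus strand: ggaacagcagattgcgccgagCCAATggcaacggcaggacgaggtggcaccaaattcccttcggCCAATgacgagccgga
SREBF2 held the sterol element 133 bases before its start and a CCAAT motif 106 bases before it. The stretches shown of MSMO1, STARD4 and SCD each held a pair of CCAAT motifs. Outside the stretches shown, the same windows held further CCAAT motifs, 100 bases before the start for HMGCS1 and 76 and 34 bases before it for MSMO1. The E-box of 3 members is shown with 12 bases on each side, with capitals for CACGTG. These windows fall in 5′ untranslated exon sequence of GENCODE 29 transcripts. SC5D rose, and INSIG1 and SCAP fell.
SC5D, chr11:121292628-121292657, plus strand: gcgcgcggcgccCACGTGaccgcggagagc
INSIG1, chr7:155297811-155297840, plus strand: gccgggcaggctCACGTGatgcgggccccg
SCAP, chr3:47475982-47476011, minus strand: cgccgctgggcgCACGTGcggagggcggcg

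Of the 4 genes that make fatty acids, 2 rose and 2 fell. ACLY, which splits citrate into cytosolic acetyl-CoA, rose from 817.5 ± 34.9 to 946.2 ± 27.7 CPM, a log2FC of 0.21 ± 0.05 (SE, adjusted p = 0.00119). ACACA, acetyl-CoA carboxylase, the committed step, rose from 116.8 ± 10.2 to 136.0 ± 1.44 CPM, a log2FC of 0.22. FASN, fatty acid synthase, fell from 333.6 ± 8.002 to 232.7 ± 19.6 CPM, a log2FC of −0.52 ± 0.06 (SE, adjusted p = 8.96e-06). ACSS2, which makes acetyl-CoA from acetate, fell from 124.6 ± 7.31 to 76.6 ± 3.58 CPM, a log2FC of −0.70. The summed level of the 4 genes was 1393 ± 40.7 CPM untreated and 1392 ± 49.5 CPM with DOX, of which ACLY made up the most.

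The desaturase and elongase genes held both of the members that fell by more than 1 on the log2 scale. FADS1 (ENSG00000149485.19, chr11:61799625-61829318, minus strand) encodes a front-end desaturase of polyunsaturated fatty acids. It read 198.7, 205.9, 199.2 and 208.6 CPM untreated and 86.1, 89.1, 85.0 and 85.1 CPM with DOX. The levels were tight within each group and fell 2.35-fold, a log2FC of −1.23 ± 0.04 (SE, adjusted p = 1.87e-10). SCD (ENSG00000099194.6, chr10:100347124-100364834, plus strand), which makes oleate from stearate, read 123.7, 120.8, 113.9 and 130.0 CPM untreated and 54.8, 59.9, 56.2 and 58.2 CPM with DOX. It fell 2.13-fold, a log2FC of −1.09 ± 0.05 (SE, adjusted p = 3.47e-09).

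FADS2, the desaturase gene next to FADS1, and ELOVL6, which lengthens palmitate, rose. FADS2 went from 227.0 ± 14.4 to 297.0 ± 16.1 CPM and ELOVL6 from 24.3 ± 1.30 to 32.1 ± 1.29 CPM, with log2FC of 0.39 and 0.40. The FADS1 to FADS2 count ratio within a library was 0.949, 0.905, 0.814 and 0.922 untreated and 0.289, 0.326, 0.277 and 0.275 with DOX. The groups were far apart, with a log2 difference of −1.62 (two-sided exact permutation p = 0.0286, the smallest possible, and 0.0429 adjusted over 3 ratios). FADS1 and FADS2 share 490 exonic bases on opposite strands in GENCODE 29, and both had fractional expected counts in all 8 libraries. The strand setting of the counting is not given in the sources used here.

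Other members overlap annotated genes too, 14 of the 30 in all. CYP51A1 shares 2844 exonic bases with AC000120.2 on the same strand, HMGCS1 703 bases with AC114947.2 and FDPS 693 bases with RUSC1-AS1, both on the opposite strand. Counts were fractional in every library for 9 members, MVK, IDI1, FDPS, CYP51A1, HSD17B7, SREBF2, ACLY, FADS1 and FADS2, and in some libraries for another 6 members. RSEM gives fractional counts where it divides reads among genes, and how many reads of a member were divided was not measured.

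Compared per kilobase of merged exons, untreated members spanned 1.78 to 157 CPM per kb. ACLY was the highest in both groups, at 157 ± 6.68 CPM per kb untreated and 181 ± 5.31 with DOX (SD, n = 4 each), followed untreated by PMVK (42.6 ± 5.12), FASN (35.6 ± 0.85) and FDPS (33.3 ± 2.80). STARD4 (1.78 ± 0.20), MVK (1.84 ± 0.30), HSD17B7 (2.18 ± 0.13) and MVD (2.27 ± 0.26) were the lowest. Of the 29 pairs of neighbours in the untreated order, 20 overlapped in their library values, including every pair from ACACA down to SREBF1, so most of the order inside these stretches is not resolved. In the 9 pairs that did not overlap, PMVK, SREBF2, SCAP and ELOVL6 were each apart from the gene above and the gene below, and ACLY from the gene below. FDFT1 moved furthest in this order, from rank 17 untreated (7.25 ± 0.56 CPM per kb) to rank 2 with DOX (27.2 ± 1.06).

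**Figure D3:**
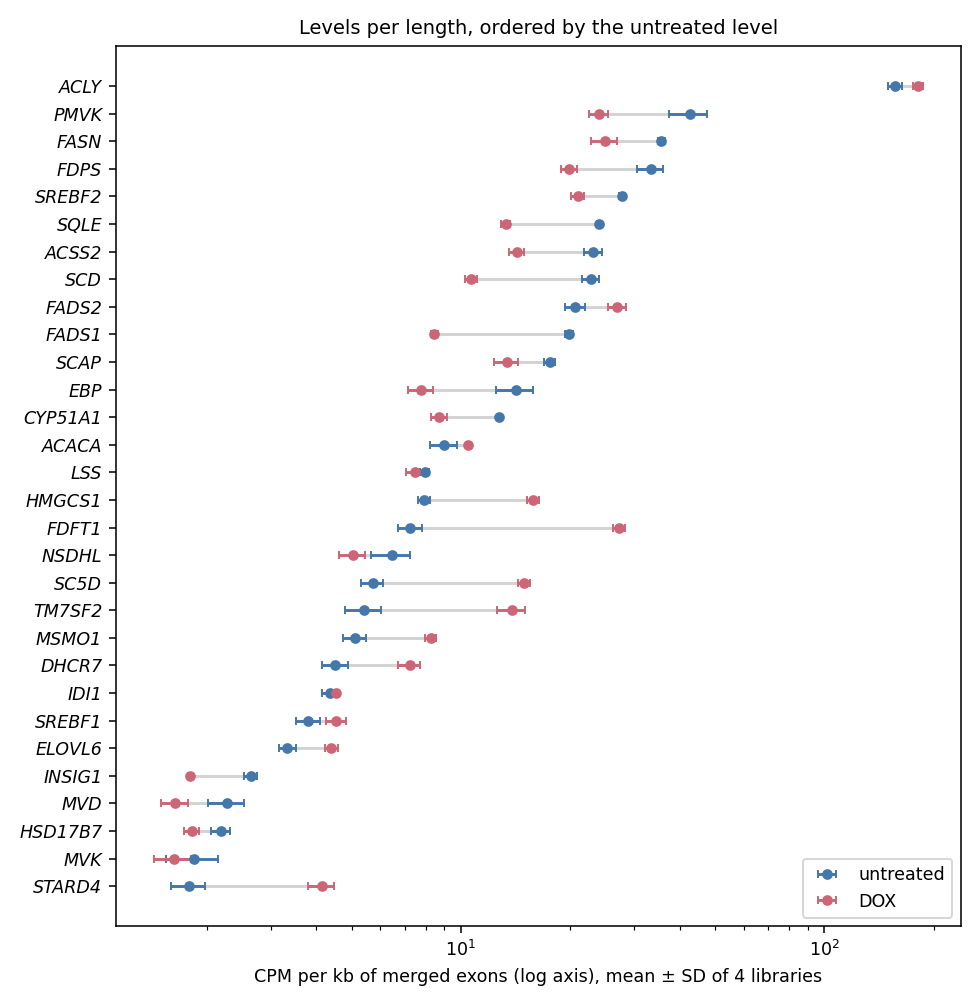
CPM per kb of merged exons on a log axis, mean ± SD of 4 libraries for each member, untreated and DOX joined by a grey line and ordered by the untreated level. ACLY stands alone at 157 and 181 CPM per kb, and FDFT1 crosses from the middle of the order (7.25) to second place (27.2).

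The total of the 30 genes was 2984 ± 37.0 CPM untreated and 2897 ± 84.5 CPM with DOX (SD, n = 4 each), with overlapping library ranges of 2934 to 3023 and 2771 to 2944 CPM. The spread inside the groups was uneven. Untreated replicate 3 was the library farthest from the other untreated ones for 16 of the 30 members, among them MVK (32.5% above the mean of the other libraries), PMVK (25.4% above), NSDHL (24.8% above), MVD (23.5% above), STARD4 (19.0% below) and ACACA (16.6% below). Without it, 12 members were called higher and 15 lower, the counts found with all 8 libraries.

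Other lipid genes, in lists chosen by role, also moved both ways. Their counts are to be read against the 38.5% of all genes tested that were called higher and the 38.1% called lower. Of 18 other sterol genes, 6 rose, 7 fell and 5 did not pass, with a median log2FC of −0.02. SOAT1, which esterifies cholesterol for storage, rose from 75.2 ± 4.95 to 164.0 ± 8.77 CPM (log2FC 1.12 ± 0.06, SE). ACAT2, the cytosolic thiolase that supplies acetoacetyl-CoA to HMGCS1, fell from 24.9 ± 2.62 to 11.4 ± 0.72 CPM (log2FC −1.12 ± 0.08, SE). LRP8, a lipoprotein receptor, had a log2FC of −0.995 ± 0.092 (SE).

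Liver X receptors (LXRs) sense oxysterols and switch on cholesterol efflux. Of 8 LXR and efflux genes, 5 were tested, of which 4 rose and 1 fell, while ABCA1, CYP46A1 and CYP27A1 stayed under the filter. Over all genes tested, 38.5% were called higher and 38.1% lower. ABCG1, a sterol exporter, was at 0 counts in all 4 untreated libraries and read 7.30, 7.88, 7.90 and 7.97 CPM with DOX. Taking 3 counts per library as the most that a count of 0 allows, for counting error only, it was at least 126-fold higher with DOX. MYLIP, which promotes the degradation of lipoprotein receptors, rose by 0.61 ± 0.05 and LPCAT3, a phospholipid-remodelling acyltransferase, fell by 0.95 ± 0.08 on the log2 scale (SE). NR1H2 and NR1H3, the LXR genes, rose by 0.41 and 0.23 on that scale (adjusted p = 0.000275 and 0.0284, edgeR). The groups of NR1H3 overlapped.

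Of 25 other fatty acid synthesis genes that were tested, out of 26 listed, 10 rose, 10 fell and 5 did not pass. The 3 largest changes were all rises. MLXIPL, which encodes ChREBP, a glucose-responsive activator of lipogenic genes, read 2.44, 2.18, 2.58 and 2.50 CPM untreated and 87.7, 76.4, 89.7 and 84.8 CPM with DOX, a log2FC of 5.13 ± 0.08 (SE, adjusted p = 3.41e-13). ME1, malic enzyme, which supplies NADPH for fatty acid synthesis, rose from 6.81 ± 0.09 to 48.5 ± 3.70 CPM (log2FC 2.83 ± 0.06, SE). ACSL1, an acyl-CoA synthetase, rose from 2.08 ± 0.45 to 7.18 ± 0.21 CPM (log2FC 1.79 ± 0.13, SE). MLXIPL, ME1 and ABCG1 passed the thresholds of the study. Of 18 fatty acid oxidation genes tested, out of 19 listed, 8 rose, 7 fell and 3 did not pass. ACADM, the medium-chain acyl-CoA dehydrogenase, had a log2FC of 0.99 ± 0.04, and CPT1C and CPT1A, carnitine palmitoyltransferases, −0.95 ± 0.06 and −0.94 ± 0.05 (SE).

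**Figure D4:**
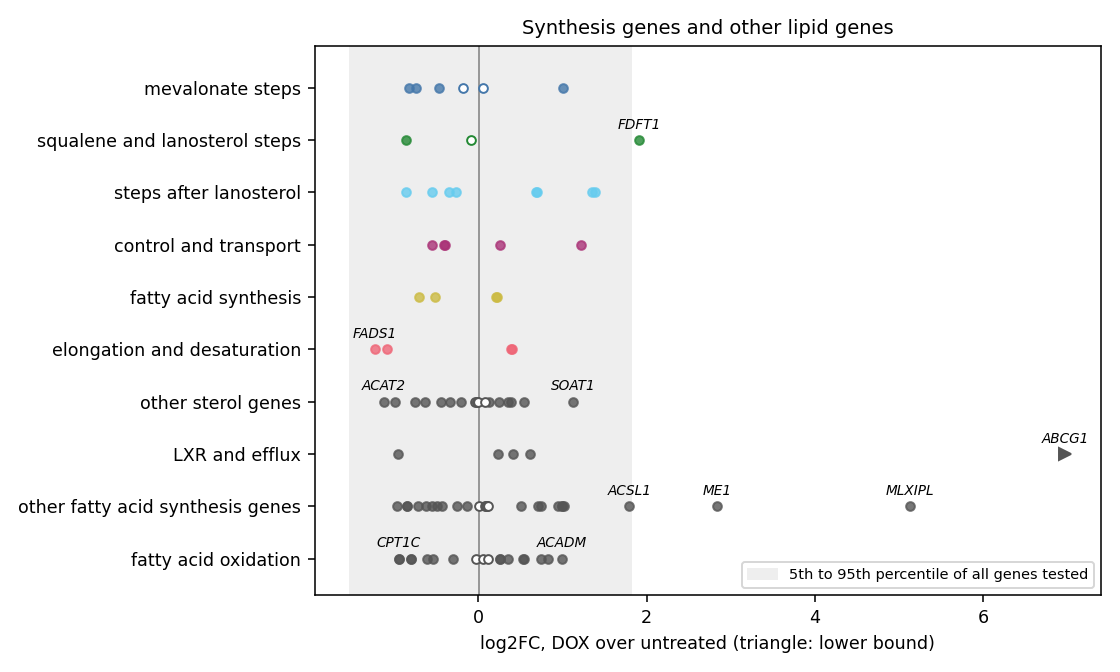
Each point is the log2FC of one gene (DOX over untreated, x axis), in a row for each role group of the 30 members (coloured) and for each list of other lipid genes (grey), with open points for genes not called and a triangle for the lower bound of ABCG1. The shaded band spans the 5th to 95th percentile of all genes tested, −1.52 to 1.81, and FDFT1 is the member outside it, while MLXIPL, ME1 and ABCG1 lie beyond it among the other genes.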

How the data were processed

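Untreated (4) and DOX-treated (4, 72 h) D283-OMO replicates were profiled by RNA-Seq and grouped by their treatment labels. Per the labels and the study's methods, the authors used Trim Galore for trimming, STAR for alignment (GENCODE release 32, GRCh38) and RSEM for counting. Tool versions are not given in the sources used here. The authors deposited expected counts per gene, not normalized, in which RSEM had divided reads that match several genes.

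These were rounded before testing, and 15222 genes above 1 CPM in at least 4 of 8 libraries were kept. The quasi-likelihood test of edgeR 4.0.16 (R 4.3.3) was applied after TMM scaling, without covariates, and p-values were adjusted over all genes tested by Benjamini and Hochberg's method. CPM are TMM-scaled. The standard error of a log2FC is |log2FC| divided by the root of its F statistic. Levels per kb used exons merged over transcripts of GENCODE 29, which holds 99.3% of the genes tested. Ratios were tested by exact permutation over 70 divisions. Python 3.11.15 was used for other steps. The models were first tested on simulated data with known changes, in which 15022 of 15222 genes were unchanged. There edgeR recovered 48 to 50 of each 50 changed genes and called 9 of the unchanged ones. In the real data most genes were called, so the simulation does not test the scaling under such a broad change.

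The 30 genes and the other lists were chosen with earlier results of these data known. Values in every library are given for members with an adjusted p below 0.05 and an absolute log2FC above 1 and for SREBF1, SREBF2, INSIG1 and SCAP. Of each other list, up to 3 genes without overlap are named by largest absolute log2FC. INSIG2, NR1H2 and NR1H3 were added after their values were seen. Some listed genes are not reported here. Alternatives were DESeq2 1.42.0 (its size factors or its Wald test), library size only, other filters, an FDR of 0.01, transcript length, the replicate number as a block and each replicate left out.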

Additional observations from a re-analysis of the deposited data

Results flagged for a closer look

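In groups of 4, a library was marked when its gap to the nearest of the others took up more of the group's range than Dixon's 95% critical value allows. Of 90 gene and group combinations tested, 4 were marked, where chance gives about 4.5. PMVK read 64.3 CPM in untreated replicate 3, where the others had 50.2 to 51.9 CPM. ACACA read 102 CPM in the same library, against 120.7 to 122.8 CPM in the others. FASN read 203 CPM in DOX replicate 2, against 239.8 to 245.6 CPM in the other DOX libraries, and ABCG1 7.30 CPM in DOX replicate 1, against 7.88 to 7.97 CPM.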

How the results depend on the processing

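Of the 30 members, 26 kept their direction and call in all 14 alternatives. Scaling by library size only moved the median of all genes by 0.13 (log2) and the share of calls that were higher from 50.3% to 60.2%. Under it the members' median was −0.10, 1 member (FADS1) fell by more than 1, FDFT1 was the 1 member past the study's thresholds, LSS turned to 0.0354 (adjusted p = 0.507), IDI1 was called at 0.18 and HSD17B7 was lost at −0.14 (adjusted p = 0.0604). MVK was called at −0.28 without untreated replicate 1 (adjusted p = 0.0443). HMGCS1 ranged from 0.95 to 1.13 (log2FC) and exceeded 1 in 7 of its settings.

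Over all genes, no filter on low counts gave 3668 higher and 2776 lower by more than 1 and 2097 past the study's thresholds, against 1682, 1493 and 1084. Requiring more than 4 libraries gave 562 past those thresholds. Leaving out DOX replicate 1, 2, 3 or 4 gave 728, 705, 723 and 729. In each of these settings, genes such as ABCG1 that are seen in DOX libraries only cannot pass the filter. With the longest transcript in place of merged exons, the median member level was 12.3 instead of 7.93 CPM per kb.

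With 1 replicate left out, genes called ran from 5279 to 5903 (higher) and 5258 to 5844 (lower), those past 1 from 1198 to 1672 and 1266 to 1448, and those past the study's thresholds from 705 to 922. Members called ran from 12 to 12 and 15 to 16, past 1 from 4 to 5 and 2 to 2, with 0 past the study's thresholds, and their median from −0.29 to −0.16. The ratios ran from 0.63 to 0.70 (SREBF1 to SREBF2), −1.68 to −1.60 (FADS1 to FADS2) and −0.22 to −0.13 (INSIG1 to SCAP).

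Whether same-numbered libraries were paired is not stated in the sources used here. Their deviations correlated at −0.18 to 0.24, which does not settle it. With the replicate block, 12 members were called higher and 15 lower, and the ratio differences of 0.66 and −1.62 had exact p = 0.125, the smallest that 4 pairs allow.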
